A study of Mus musculus with 6 samples.

Results

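The 27 genes described here encode the enzymes that build cholesterol from acetyl-CoA, the machinery that controls the transcription factor SREBP2, and the sterol carrier Stard4. They were taken by symbol from a table of 24421 gene symbols. All 27 were in the table and all 27 were among the 12945 genes that passed the filter on low counts. Of them, 8 act from acetyl-CoA to the prenyl diphosphates, 12 act from squalene to cholesterol, 6 form the SREBP2 machinery and 1 carries sterols.

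Bulk RNA of liver was sequenced in 6 libraries, 3 from mice lacking Sesn3 (KO) and 3 from wild-type mice (WT). Sesn3 encodes a sestrin, a family of stress-induced proteins that act on growth and metabolic signalling. Both groups were male C57BL/6 mice of 4 months of age, and both had eaten for 4 weeks a diet with 20% of its energy from protein, 40% from fat and 40% from carbohydrate, to which cholesterol (1.25%) and the bile salt sodium cholate (0.5%) had been added. No group on an ordinary diet is among these libraries, so each value compares genotypes under cholesterol and cholate feeding. The labels do not say which stretch of Sesn3 was removed, in which tissues, or whether a library came from 1 animal. The p-values therefore measure only the spread between these samples, which may be technical.

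Cells make cholesterol in the endoplasmic reticulum through the mevalonate pathway, whose early steps also supply prenyl groups for proteins, ubiquinone and dolichol. SREBP2 is held in that membrane by Scap and the Insig proteins when sterols are plentiful. When sterols run low, Scap escorts it to the Golgi, where a pair of proteases cut it, and the released part enters the nucleus and turns on the genes of the pathway. The liver is a main site of cholesterol synthesis, and dietary cholesterol lowers it through this loop.

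The libraries held between 18882220 and 24098512 counts. Sesn3 (chr9:14275067-14333101, mm10) had 18, 18 and 16 counts in the KO libraries and 172, 200 and 195 counts in the WT libraries. Its level was 0.715 ± 0.0398 CPM (SD, n = 3) in KO and 10.3 ± 1.31 CPM in WT, where CPM is the count scaled to a common library size with TMM factors. Sesn3 was thus 14.4-fold lower in the KO libraries (edgeR quasi-likelihood test, adjusted p = 0.00183). Of the hepatocyte markers Alb was the highest, with 76210 ± 8099 CPM in KO and 71749 ± 25196 CPM in WT, while Ass1 had 9 to 23 counts a library. Whether that low Ass1 count reflects the liver or the way reads were assigned to genes was not tested. All 12 hepatocyte genes summed to between 94893 and 114020 CPM in KO and between 90834 and 149210 CPM in WT. Of the 12, edgeR called 1 lower (Serpina1c) and DESeq2 called 4 lower. By edgeR, 3.58% of all genes tested were lower and 3.36% higher. Of the 12, 9 had a negative log2 fold change, as had 6435 of all 12945 genes tested, and the median was -0.42. For 5 of the 12 every KO library lay below every WT library, as for 16.6% of all genes tested. Some markers of macrophages and of stellate cells and fibroblasts were higher in KO. Of 12 macrophage genes, edgeR called 3 higher (summed level 2156 to 2678 CPM in KO, 928 to 1919 CPM in WT). Of 10 stellate cell and fibroblast genes, it called 5 higher (986 to 1286 CPM against 318 to 536 CPM). The log2 fold change was negative for 2 of the macrophage genes and for 0 of the stellate and fibroblast genes. DESeq2 called 6 and 7 higher. Of all 16935 genes with a value, DESeq2 called 924 higher and 1040 lower. Without KO replicate 1, 2 and 3 the macrophage count by edgeR was 0, 0 and 0 and the stellate and fibroblast count 0, 0 and 2. Without WT replicate 1, 2 and 3 they were 7, 3 and 0, and 5, 4 and 0. The count of all genes higher was 435 with all libraries. It was 144, 48 and 130 without KO replicate 1, 2 and 3, and 504, 405 and 132 without WT replicate 1, 2 and 3. By edgeR, 0 of 10 endothelial, 0 of 7 cholangiocyte, 0 of 10 lymphoid and 0 of 5 neutrophil genes tested were called. At an unadjusted p under 0.05 there were 3, 1, 2 and 0, and DESeq2 and limma-voom called 0. In these lists 9, 0, 7 and 4 genes had a negative log2 fold change, with medians of -0.52, 0.29, -0.51 and -0.31. The endothelial genes summed to 472, 408 and 222 CPM in the KO libraries and 520, 522 and 409 CPM in the WT libraries. Of 3 erythroid genes tested, 1 fell, while the globin genes Hba-a1, Hba-a2, Hbb-bs and Hbb-bt, all with near copies, were listed at 0 in all 6 libraries. In bulk liver, fewer cells of a type and less RNA per cell cannot be told apart, and the part of these cell types in the values below was not tested.

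Windows of 250 bases before to 50 bases after each annotated start, from RefSeq (GRCm38.p6), were found for 23 of the 27 genes. The 5 stretches printed here were chosen to set genes that fell in KO (Hmgcs1, Nsdhl, Insig1) beside the regulator Srebf2 and beside Insig2, the gene with the largest positive difference. Each is read 5′ to 3′ on the gene's strand, ends at or before the annotated start and leaves out coding-gene exons. Capitals mark matches, on either strand, to the sterol element TCACNCCAC or TCACNCCAT, the CCAAT box, the GC box GGGCGG and the E-box CACGTG.
Hmgcs1, chr13:119690151-119690350, plus strand: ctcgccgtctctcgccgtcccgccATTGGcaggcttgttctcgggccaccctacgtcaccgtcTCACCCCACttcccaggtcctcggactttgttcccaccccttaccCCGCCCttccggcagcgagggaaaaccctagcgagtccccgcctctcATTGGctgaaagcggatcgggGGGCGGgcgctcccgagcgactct
Nsdhl, chrX:72918412-72918520, plus strand: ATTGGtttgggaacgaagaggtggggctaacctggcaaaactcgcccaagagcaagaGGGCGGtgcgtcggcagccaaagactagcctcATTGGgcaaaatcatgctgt
Srebf2, chr15:82147069-82147180, plus strand: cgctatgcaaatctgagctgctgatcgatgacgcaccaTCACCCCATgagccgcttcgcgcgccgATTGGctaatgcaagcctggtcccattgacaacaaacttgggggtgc
Insig1, chr5:28071212-28071362, plus strand: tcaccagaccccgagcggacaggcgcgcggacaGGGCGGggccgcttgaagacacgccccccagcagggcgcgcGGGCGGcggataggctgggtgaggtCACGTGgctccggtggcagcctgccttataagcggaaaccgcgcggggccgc
Insig2, chr1:121332590-121332789, minus strand: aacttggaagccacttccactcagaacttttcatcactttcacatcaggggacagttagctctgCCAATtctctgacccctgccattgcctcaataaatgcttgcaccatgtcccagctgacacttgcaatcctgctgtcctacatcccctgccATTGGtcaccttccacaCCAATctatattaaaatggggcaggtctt
Hmgcs1 holds TCACNCCAC and Srebf2 holds TCACNCCAT, each with a CCAAT match in the same stretch. Nsdhl has CCAAT and GGGCGG but neither sterol element, and Insig1 has GGGCGG and CACGTG. The first of the 3 Insig2 windows has CCAAT matches and none of the other letters searched. A match is a description of letters, and no match says only that these letters are not in this stretch.

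Across all windows of the genes, TCACNCCAC matched 1 of 23 genes (Hmgcs1) and TCACNCCAT matched 2 (Msmo1 and Srebf2). These were 1 and 2 of 29 gene windows (3.45% and 6.90%), against 1.24% and 0.764% of the 32851 windows in the RefSeq table. TCACNCCAT was added after seeing the data, and shares that rest on 1 and 2 windows are a description alone. CCAAT was found for 19 genes (65.5% of their windows, 37.4% of all windows), GGGCGG for 20 (79.3%, 35.7% of all) and CACGTG for 5 (20.7%, 7.15% of all). Both strands were searched, and the sterol elements differ from each other in the last letter alone.

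Genes along the cholesterol pathway were lower in KO liver, from Hmgcs1 near its start to Sc5d near its end. By edgeR, 11 of the 27 genes fell and 0 rose, while 3.58% of all genes tested fell and 3.36% rose. Insig2 was the 1 gene with a positive difference at an unadjusted p under 0.05, and DESeq2 and limma-voom called 0 of the 27 higher. The log2 fold change (KO minus WT) was negative for 25 genes and positive for 2, with a median of -0.71, while the median of all genes tested was 0.0027. For 15 genes every KO library lay below every WT library, as for 16.6% of all genes tested, and for 1 gene, Insig2, every KO library lay above, as for 16.9%. The count of 11 moved with single libraries: it became 4, 0 and 1 without KO replicate 1, 2 and 3, and 10, 12 and 6 without WT replicate 1, 2 and 3. The count of all genes lower moved too, from 463 with all libraries. It was 151, 53 and 131 without KO replicate 1, 2 and 3, and 458, 475 and 160 without WT replicate 1, 2 and 3. Counts with a library left out in the lists below are to be read beside these. Without KO replicate 2, 15 of the 27 and 1229 of all 13093 genes tested were lower at an unadjusted p under 0.05.

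**Figure D1:**
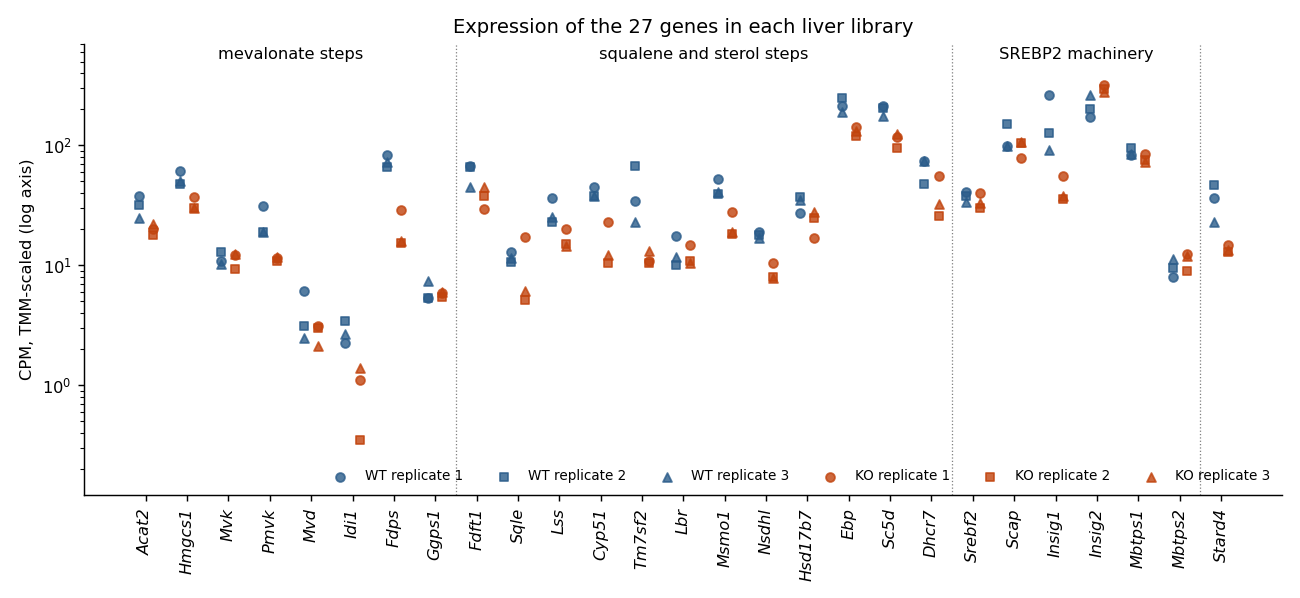
Level of each of the 27 genes in CPM (log axis) in the 3 WT and 3 KO libraries, one point per library, in pathway order. For Fdps the KO points lie between 15.4 and 29.0 CPM, all below the WT points of 65.5 to 82.6 CPM, whereas the Insig2 KO points lie above the WT points.

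**Figure D2:**
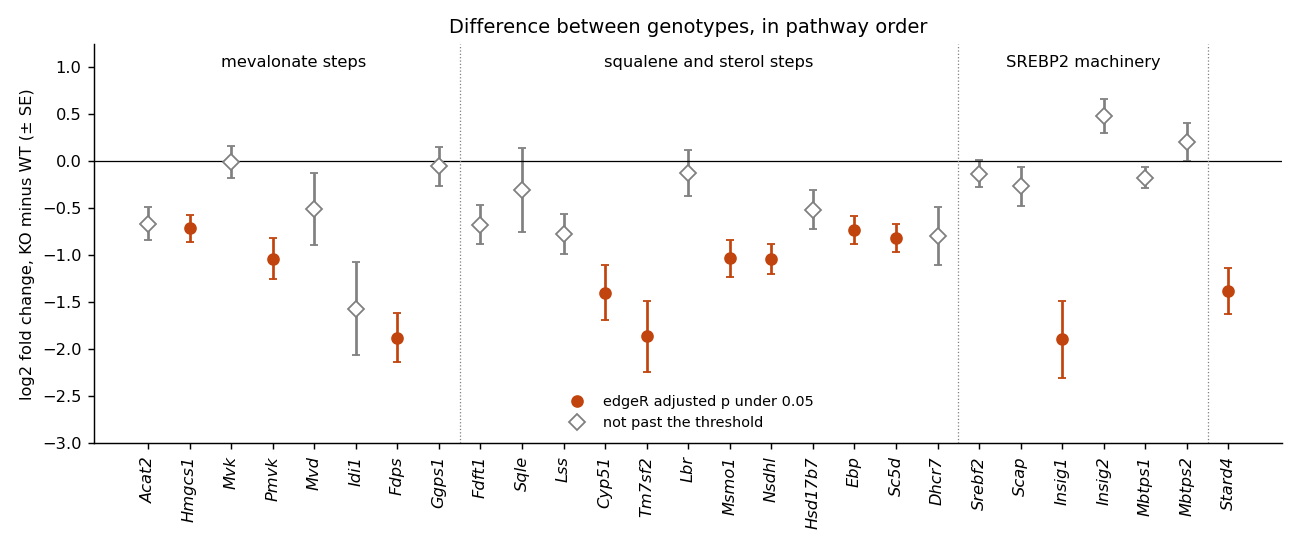
log2 fold change (KO minus WT) with its standard error for each gene in pathway order, with filled points for edgeR adjusted p under 0.05. The filled points run from -0.71 (Hmgcs1) to -1.89 (Insig1), and 2 genes, Insig2 and Mbtps2, lie above 0.

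Of the 8 genes from acetyl-CoA to the prenyl diphosphates, 3 fell (Hmgcs1, Pmvk and Fdps), while 3.58% of all genes tested fell. The other 5 were not called, and the median log2 fold change was -0.69. The count of 3 became 1, 0 and 1 without KO replicate 1, 2 and 3, and 3, 3 and 1 without WT replicate 1, 2 and 3. The summed level of the 8 was 119.7, 92.5 and 101 CPM in the KO libraries and 237, 189 and 190 CPM in the WT libraries, so the groups did not overlap. Values varied from step to step: the kinase Mvk stood at a log2 fold change of -0.01, while Pmvk, the kinase that acts right after it, was 2.05-fold lower.

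Hmgcs1, the cytosolic synthase that makes HMG-CoA (chr13:119690379-119708260), had 37.0, 30.3 and 29.9 CPM in KO and 60.8, 47.5 and 50.6 CPM in WT. Every KO library was below every WT library, and Hmgcs1 fell by 0.71 on the log2 scale (SE 0.14, edgeR adjusted p = 0.0313). Acat2, the thiolase of the step before it, had 19.9, 17.9 and 22.0 CPM in KO and 37.9, 32.0 and 24.8 CPM in WT. Its groups did not overlap either, but the log2 fold change of -0.66 (SE 0.18) missed the threshold (adjusted p = 0.0630). Acat2 has a close relative, Acat3, as its neighbour on chr17, and how reads that match both were counted is not given in the sources used here, so its count is uncertain. The globin genes, which also have near copies, are listed at 0 in the same table.

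Mvk, mevalonate kinase (chr5:114444269-114460591), had 12.2, 9.38 and 12.4 CPM in KO and 10.9, 12.9 and 10.3 CPM in WT. Its groups overlapped, and the adjusted p was 0.985 (SE 0.17). Its neighbour Mmab, an enzyme of vitamin B12 metabolism whose start lies 209 bases away on the opposite strand, is also a known SREBP2 target and was singled out after its values were seen. Mmab fell from 11.2 ± 2.13 to 6.27 ± 0.764 CPM, with a log2 fold change of -0.84 (edgeR adjusted p = 0.0471), a call kept without WT replicate 2 alone of the 6 libraries. Whether Mvk and Mmab differed from each other was not tested.

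Pmvk, phosphomevalonate kinase (chr3:89454541-89469013), had 11.4, 10.8 and 11.6 CPM in KO and 31.3, 18.8 and 19.1 CPM in WT. The groups did not overlap, and WT replicate 1 stood highest. Pmvk fell by 1.03 on the log2 scale (SE 0.22, edgeR adjusted p = 0.0353). Mvd, the decarboxylase that makes isopentenyl diphosphate, had 3.09, 3.01 and 2.11 CPM in KO and 6.07, 3.14 and 2.46 CPM in WT. WT replicate 1 again stood apart, the groups overlapped, and the log2 fold change of -0.51 (SE 0.38, adjusted p = 0.441) was -0.02 without that library.

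Idi1, the isomerase of isopentenyl diphosphate, had the lowest mean of the 27 per length, at 0.920 ± 0.198 CPM per kilobase of exon in WT. Its WT libraries overlapped those of Mbtps2, the next in that order. It had 1.10, 0.347 and 1.38 CPM in KO and 2.25, 3.43 and 2.67 CPM in WT, from 9 to 32 counts a library in KO and 43 to 59 in WT. The groups did not overlap, but a log2 fold change of -1.56 with an SE of 0.50 was not called (adjusted p = 0.0997). This is a difference of 2.96-fold in the means that was not detectable at this depth and spread by edgeR, while DESeq2 called it (adjusted p = 0.0239).

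Fdps, farnesyl diphosphate synthase (chr3:89093588-89101959), sits where the sterol and nonsterol branches part. It had 29.0, 15.4 and 15.8 CPM in KO and 82.6, 65.5 and 72.6 CPM in WT. The groups lay far apart, and KO replicate 1 was the highest of the KO libraries. Fdps was 3.67-fold lower (log2 fold change -1.87, SE 0.26, edgeR adjusted p = 0.0121). It passed without 5 of the 6 libraries in turn and had an adjusted p of 0.0624 without KO replicate 2. In the annotation 77.4% of its exon bases are shared with a read-through gene on the same strand, Gm43738, which is not among the gene symbols counted. Ggps1, which extends farnesyl to geranylgeranyl diphosphate for protein prenylation, had 5.48 to 6.03 CPM in KO and 5.29 to 7.37 CPM in WT, with a log2 fold change of -0.05 (SE 0.21, adjusted p = 0.900).

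Of the 12 genes from squalene to cholesterol, 6 fell (Cyp51, Tm7sf2, Msmo1, Nsdhl, Ebp and Sc5d), while 3.58% of all genes tested fell. All 12 had a negative log2 fold change, as had 6435 of all 12945 genes tested, and their median was -0.78. The count of 6 became 3, 0 and 0 without KO replicate 1, 2 and 3, and 5, 7 and 3 without WT replicate 1, 2 and 3. The summed level of the 12 was 485, 381 and 444 CPM in KO and 813, 810.3 and 685 CPM in WT, with no overlap. DESeq2 called 8 of the 12 lower, adding Fdft1 (adjusted p = 0.0441) and Lss (adjusted p = 0.0198).

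Fdft1, squalene synthase, which commits farnesyl diphosphate to sterols, had 29.6, 38.1 and 44.9 CPM in KO and 67.6, 66.5 and 45.1 CPM in WT. KO replicate 3 and WT replicate 3 were nearly level, and the log2 fold change was -0.67 (SE 0.21, adjusted p = 0.0955). Of its exon bases, 20.9% overlap Ctsb on the opposite strand, a lysosomal protease gene at 1980 ± 151 CPM in KO and 1278 ± 286 CPM in WT. The strand setting of the counting is not given in the sources used here, so reads of Fdft1 and Ctsb may not be told apart.

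Sqle, squalene epoxidase, the rate-limiting oxidation of the sterol branch, had 17.2, 5.17 and 6.12 CPM in KO and 13.0, 10.7 and 11.4 CPM in WT. KO replicate 1 was above all WT libraries while the other two KO libraries were below them. The log2 fold change was -0.30 (SE 0.44, adjusted p = 0.706) with all libraries and -1.04 (adjusted p = 0.0556) without KO replicate 1. Lss, lanosterol synthase, which closes the sterol rings, had 19.9, 15.1 and 14.5 CPM in KO and 36.5, 22.8 and 25.2 CPM in WT. Its groups did not overlap, and its log2 fold change of -0.77 (SE 0.21) had an adjusted p of 0.0718.

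Cyp51, the lanosterol demethylase (chr5:4081145-4104746), had 23.0, 10.4 and 12.3 CPM in KO and 44.7, 38.1 and 37.5 CPM in WT. The groups did not overlap, KO replicate 1 was again the highest KO library, and Cyp51 fell by 1.40 on the log2 scale (SE 0.29, edgeR adjusted p = 0.0380). Tm7sf2 (chr19:6062821-6068373) encodes the sterol reductase of the next step, and Lbr, an inner nuclear membrane protein that binds lamin B, has the same reductase activity. Tm7sf2 had 10.8, 10.4 and 13.1 CPM in KO and 34.4, 67.0 and 22.8 CPM in WT, and Lbr had 14.8, 10.8 and 10.4 CPM in KO and 17.6, 10.1 and 11.6 CPM in WT. Tm7sf2 was 3.63-fold lower (log2 fold change -1.86, SE 0.38, edgeR adjusted p = 0.0353), with -1.33 without WT replicate 2, its highest library. Lbr overlapped between groups, with a log2 fold change of -0.13 (SE 0.25, adjusted p = 0.783).

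Within a library, the ratio of Tm7sf2 to Lbr counts was 0.727, 0.957 and 1.26 in KO and 1.96, 6.63 and 1.96 in WT. In WT liver Tm7sf2 was the more counted of the pair in all 3 libraries, and in KO liver in 1 of 3. These are counts without regard to length, and the exons of Tm7sf2 are shorter (1694 against 3510 bases). Per kilobase of exon Tm7sf2 was above Lbr in every library of both groups. In KO it had 6.36, 6.13 and 7.71 CPM per kilobase, against 4.23, 3.09 and 2.96 for Lbr. The log2 ratio was lower in KO by 1.62 without overlap, and by 1.03 without WT replicate 2. A two-sided exact permutation test of 3 against 3 cannot go below p = 0.10. It gave that value here, 0.20 after adjustment over the 6 gene pairs compared, so the difference in ratio did not pass.

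Msmo1, the methylsterol oxidase (chr8:64718139-64733792), had 27.6, 18.1 and 19.0 CPM in KO and 52.1, 39.2 and 40.8 CPM in WT. Nsdhl, the dehydrogenase that works with it to strip methyl groups from the ring (chrX:72918557-72958514), had 10.4, 7.95 and 7.76 CPM in KO and 19.0, 17.7 and 16.8 CPM in WT. Neither gene's groups overlapped. Msmo1 was 2.04-fold lower (SE of log2 0.20, edgeR adjusted p = 0.0275) and Nsdhl 2.06-fold lower (SE 0.16, adjusted p = 0.0151). Hsd17b7, the keto reductase that completes each round of demethylation, had 16.9, 24.9 and 27.8 CPM in KO and 27.1, 37.2 and 35.0 CPM in WT. Its groups overlapped at KO replicate 3 and WT replicate 1, and its log2 fold change was -0.51 (SE 0.21, adjusted p = 0.175).

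Ebp, the sterol isomerase (chrX:8185329-8193512), was the highest of the 27 per length in WT, at 125 ± 17.3 CPM per kilobase of exon. It had 141, 120 and 132 CPM in KO and 213, 249 and 189 CPM in WT. Sc5d, the desaturase of the next step (chr9:42251595-42264256), had 117, 95.0 and 124 CPM in KO and 213, 204 and 175 CPM in WT. Both were lower in every KO library than in every WT library, Ebp by 1.66-fold (SE of log2 0.14, edgeR adjusted p = 0.0305) and Sc5d by 1.76-fold (SE 0.15, adjusted p = 0.0238). Dhcr7, the reductase that yields cholesterol from its dehydro precursor, had 55.7, 25.6 and 32.1 CPM in KO and 74.3, 47.7 and 74.2 CPM in WT. KO replicate 1 lay above WT replicate 2, and the log2 fold change was -0.79 (SE 0.31, adjusted p = 0.168), or -1.18 (adjusted p = 0.0709) without KO replicate 1.

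Of the 6 genes of the machinery that controls SREBP2, 1 fell, Insig1, while 3.58% of all genes tested fell. The median log2 fold change of the 6 was -0.15. The count of 1 became 0, 0 and 0 without KO replicate 1, 2 and 3, and stayed 1 without each WT library. The summed level was 591, 546 and 542 CPM in KO and 669, 617 and 584 CPM in WT, so the groups overlapped. No test of the machinery against the enzymes was made.

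Srebf2, the gene of SREBP2 itself (chr15:82147181-82205379), had 40.2, 29.9 and 32.7 CPM in KO and 41.0, 37.6 and 33.9 CPM in WT, with a log2 fold change of -0.13 (SE 0.14, adjusted p = 0.608). Scap, the escort and sterol sensor, had 78.3, 104 and 107 CPM in KO and 99.1, 149.7 and 98.5 CPM in WT (log2 fold change -0.27, SE 0.21, adjusted p = 0.458). Both overlapped between groups. Mbtps1, the protease of the first cut in the Golgi, had 83.9, 76.1 and 73.2 CPM in KO and 83.3, 94.3 and 85.0 CPM in WT, with a log2 fold change of -0.17 (SE 0.11, adjusted p = 0.379). Mbtps2, the protease of the next cut, had 12.3, 8.88 and 11.9 CPM in KO and 7.95, 9.42 and 11.3 CPM in WT, with a log2 fold change of 0.21 (SE 0.20, adjusted p = 0.559). Of the Mbtps2 exon bases, 36.1% lie under Yy2, which is counted separately. These tests concern transcripts and do not measure cleavage of SREBP2.

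Of the retention proteins, Insig1 fell, while Insig2 had a positive difference that did not pass the test. Insig1 is itself a classical SREBP target (chr5:28071363-28078662), whereas Insig2 is not (chr1:121304353-121332589). Insig1 had 55.7, 35.4 and 38.1 CPM in KO and 264, 126 and 90.7 CPM in WT. The WT libraries were widely spread, with replicate 1 highest, yet none reached down to the KO libraries. The level of Insig1 was 3.72-fold lower (edgeR adjusted p = 0.0405), a log2 fold change of -1.89 (SE 0.41), or -1.32 without WT replicate 1. Insig2 had 321, 292 and 279 CPM in KO and 174, 200 and 265 CPM in WT. Every KO library was above every WT library, but the log2 fold change of 0.48 (SE 0.18, adjusted p = 0.146) was called under none of the alternatives run, which ranged from 0.36 to 0.69.

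The Insig2 to Insig1 count ratio was 0.659, 1.59 and 2.92 in the WT libraries and 5.75, 8.25 and 7.33 in the KO libraries. Insig1 was the more counted of the pair in WT replicate 1 alone, and Insig2 was the more counted in every KO library. Per length, the level of Insig1 was 59.3 ± 33.9 CPM per kilobase in WT and 16.0 ± 4.10 in KO, and that of Insig2 was 72.1 ± 15.9 in WT and 101 ± 7.17 in KO. The difference in log2 ratio (Insig1 over Insig2) was -2.28 without overlap and -1.71 without WT replicate 1. The exact permutation test gave its smallest possible p, 0.10 (0.20 adjusted over the 6 pairs), so this did not pass.

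**Figure D3:**
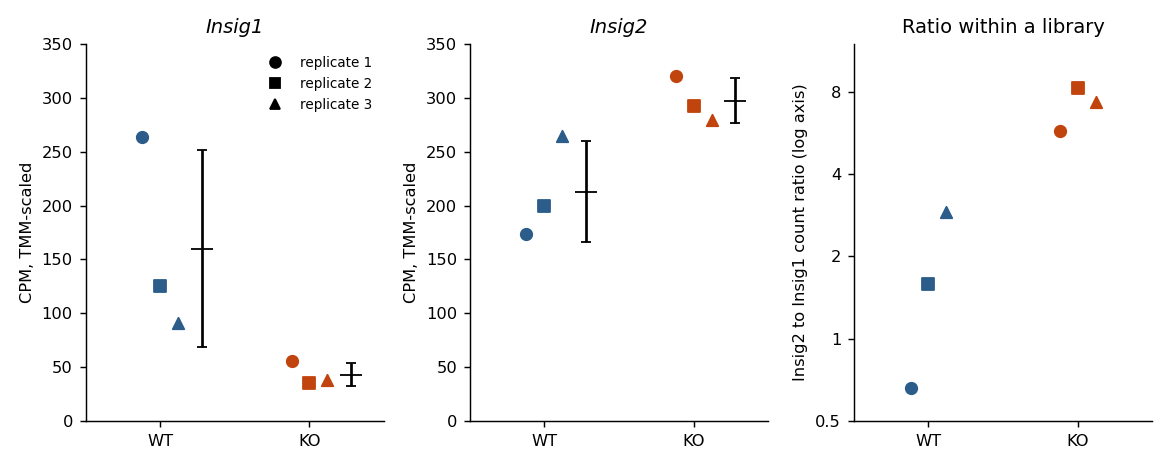
Insig1 and Insig2 levels in CPM by library, with mean and SD beside the points, and the ratio of Insig2 to Insig1 counts within each library (log axis). The ratio is 0.659 to 2.92 in the WT libraries and 5.75 to 8.25 in the KO libraries, with no overlap.

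Stard4, which carries sterols between membranes and is itself induced by SREBP2, had 14.6, 13.0 and 13.3 CPM in KO and 36.3, 46.9 and 23.1 CPM in WT. The groups did not overlap, and Stard4 was 2.60-fold lower (log2 fold change -1.38, SE 0.25, edgeR adjusted p = 0.0234). Its relatives Stard3 and Stard5 had log2 fold changes of 0.19 (adjusted p = 0.383) and -0.08 (adjusted p = 0.828). Stard6 had too few counts to be tested.

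Paralogs that serve other pathways gave a comparison for single steps. Acat1, the mitochondrial thiolase, had a log2 fold change of -0.63 (edgeR adjusted p = 0.0579) and Acat3 had -0.35 (adjusted p = 0.211). Srebf1, whose SREBP1c form drives fatty acid synthesis, fell from 682 ± 185 to 340.2 ± 39.4 CPM, a 2.01-fold difference (adjusted p = 0.0465). Srebf1 passed in 1 of 6 fits with 1 library left out, without WT replicate 3, and missed the threshold with upper-quartile factors (adjusted p = 0.0525) and library size only (adjusted p = 0.0657). Counts per gene do not separate its SREBP1a and SREBP1c forms. For the pairs Srebf2/Srebf1 and Acat2/Acat1 the log2 ratio differed by 0.83 and -0.01, with exact permutation p of 0.10 and 1.0 (0.20 and 1.0 adjusted), and for Mbtps1/Mbtps2 by -0.38 with p = 0.20 (0.30 adjusted).

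Per length, the order of the genes in WT liver was led by Ebp (125 ± 17.3 CPM per kilobase), Insig2 (72.1 ± 15.9), Insig1 (59.3 ± 33.9), Fdps (50.6 ± 5.92), Sc5d (40.6 ± 4.10), Scap (27.4 ± 6.95) and Tm7sf2 (24.4 ± 13.5). The libraries of Insig1 overlapped those of Insig2 and of Fdps, and the libraries of Tm7sf2 overlapped those of Scap, so those neighbours did not differ beyond their spread. At the other end stood Idi1, Mbtps2 (1.20), Ggps1 (1.37) and Mvd (2.21). There the WT libraries of each gene overlapped those of the next, so these neighbours did not differ beyond their spread either. In KO liver Insig2 came first and Ebp second (75.2 ± 6.18), while Fdps moved from rank 4 to rank 7 (13.8 ± 5.35) and Tm7sf2 from rank 7 to rank 14 (6.73 ± 0.852). The KO libraries of Fdps overlapped those of its neighbours Insig1 and Dhcr7, and those of Tm7sf2 overlapped Srebf2 and Pmvk. The exact KO ranks of Fdps and Tm7sf2 are therefore not resolved.

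Single libraries left a mark across the pathway. KO replicate 1 was the highest KO library for 17 of the 27 genes (63.0%), against 39.9% of all genes tested, and stood at least 1.5-fold above the next KO library for Fdps, Sqle, Cyp51 and Dhcr7 (14.8% of the genes, 4.30% of all). KO replicate 2 was the lowest KO library for 17 (63.0%, 31.3% of all) and the highest for 0. WT replicate 1 was the highest WT library for 16 (59.3%, 33.5% of all) and stood at least 1.5-fold above the next for Pmvk, Mvd, Lbr and Insig1 (14.8%, 8.55% of all). The median coefficient of variation of the 27 genes was 16.7% among KO and 19.8% among WT libraries. Of the 11 genes that fell, none passed in all 6 fits with 1 library left out: Fdps passed in 5, Nsdhl in 4, Tm7sf2, Msmo1, Sc5d, Insig1 and Stard4 in 3, and Hmgcs1, Pmvk, Cyp51 and Ebp in 2. None of the 11 changed sign in these fits, and their highest adjusted p ran from 0.0624 (Fdps) to 0.155 (Insig1).

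**Figure D4:**
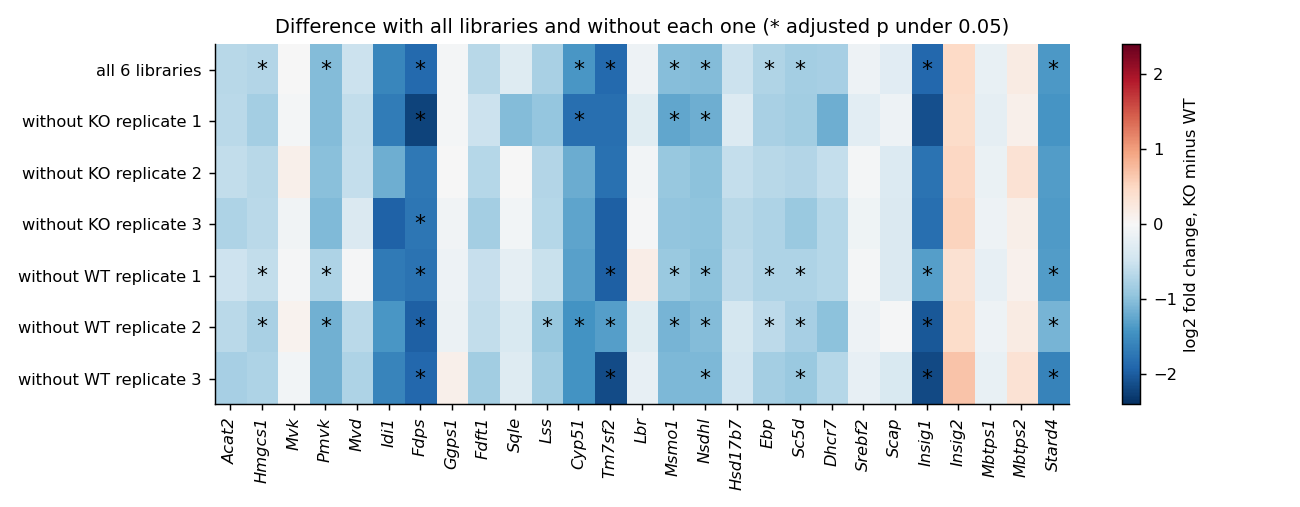
log2 fold change (colour) of each gene with all 6 libraries and with each library left out in turn, with a star for edgeR adjusted p under 0.05. The line without KO replicate 2 holds 0 stars and the line without WT replicate 2 holds 12, while the colours of the 11 genes that fell stay on the same side.

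Genes around the pathway were taken from lists, and their counts read against 3.58% of all genes lower and 3.36% higher. Of 16 tested genes of the nonsterol branch, which use prenyl diphosphates for protein prenylation, dolichol and ubiquinone, edgeR called 0, with a median log2 fold change of -0.07. At an unadjusted p under 0.05, 1 was higher and 2 lower, and limma-voom called 0 while DESeq2 called 1 higher and 2 lower. The smallest p was that of Rabggta, a geranylgeranyl transferase of Rab proteins (log2 fold change -0.48, adjusted p = 0.0634). Of 19 tested partners of SREBP transport and degradation, 1 fell: Sar1b, a GTPase of the vesicles that carry Scap, at 74.9 ± 7.66 CPM in KO and 117 ± 8.14 CPM in WT (edgeR adjusted p = 0.0270). Of the 6 fits with 1 library left out, Sar1b passed in those without WT replicate 1 and WT replicate 2, and its adjusted p was at most 0.112. The median of that list was -0.04. At an unadjusted p under 0.05, 3 of the 19 were higher and 3 lower, against 1614 and 1720 of all 12945 genes tested. DESeq2 called 1 higher and 2 lower. Every KO library lay above every WT library for 7 of the 19, as for 16.9% of all genes tested. For 2 every KO library lay below, as for 16.6% of all.

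Among 9 tested genes that are known to respond to sterols outside the pathway, 4 fell and 1 rose, with a median of -0.47. The count lower became 2, 0 and 1 without KO replicate 1, 2 and 3, and 3, 3 and 1 without WT replicate 1, 2 and 3, and the count higher became 0 without KO replicate 2. Acss2, which makes acetyl-CoA from acetate, fell by 1.31 on the log2 scale (edgeR adjusted p = 0.00655), and Aacs, which activates acetoacetate for lipid synthesis, fell by 1.60 (adjusted p = 0.0196). Lpin1, a phosphatidate phosphatase, fell by 2.14 (adjusted p = 0.0440), a call kept without WT replicate 1 alone of the 6 libraries and missed without the filter on low counts (adjusted p = 0.0901). Mmab, described above, was the other that fell. Pltp, the phospholipid transfer protein of plasma lipoproteins, rose 2.63-fold (adjusted p = 0.0109). In the 6 fits with 1 library left out, Acss2 and Pltp passed in 5 and Aacs in 3.

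Another list held Srebf1 with genes of fatty acid synthesis and related steps, and which regulator acted on each was not tested. Of 13 tested genes of that list, 7 fell and 0 rose, and the median was -0.98. None was higher at an unadjusted p under 0.05, and DESeq2 and limma-voom called 0 higher. The count lower became 1, 1 and 2 without KO replicate 1, 2 and 3, and 4, 6 and 4 without WT replicate 1, 2 and 3. Pklr, liver pyruvate kinase, had a log2 fold change of -1.48 (edgeR adjusted p = 0.00421). Thrsp, a lipogenic nuclear protein, had -4.95 (adjusted p = 0.00873), Acacb, an acetyl-CoA carboxylase, -2.36 (adjusted p = 0.0133) and Elovl6, a fatty acid elongase, -1.31 (adjusted p = 0.0182). In the 6 fits with 1 library left out, Pklr passed in 6, Thrsp in 4, Acacb in 3 and Elovl6 in 2. The WT libraries of Thrsp were widely spread, at 450, 125 and 130 CPM. Of 15 genes of oxysterol sensing, sterol efflux and bile acid synthesis, 2 fell and the median was -0.31. That count became 0, 0 and 1 without KO replicate 1, 2 and 3, and 1 without WT replicate 3. The 2 genes were Cyp7b1, the oxysterol hydroxylase (log2 fold change -2.54, adjusted p = 0.0143), and Cyp27a1, the sterol hydroxylase of mitochondria (-1.09, adjusted p = 0.0256). Each passed in 3 of the 6 fits with 1 library left out. The lists hold different numbers of genes, and no test of one list against another was made.

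**Figure D5:**
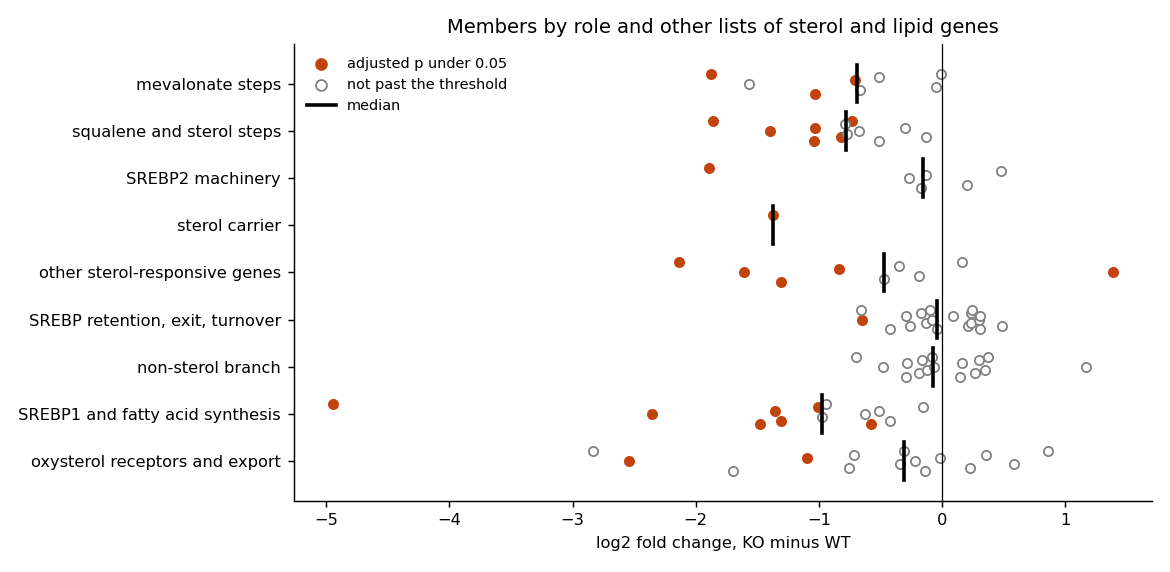
log2 fold change (KO minus WT) of each tested gene in the 4 role groups and in the other lists of sterol and lipid genes, with genes past the edgeR threshold filled. The medians are -0.69 for the mevalonate steps, -0.78 for the squalene and sterol steps, -0.15 for the SREBP2 machinery and -0.07 for the nonsterol branch.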

How the data were processed

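Liver mRNA was measured in 6 libraries from 2 genotypes. The authors deposited raw counts, 1 whole number for each gene symbol and library, with no normalization. Per the submitters' processing notes the tools were STAR 2.5, featureCounts, Subread 1.5.3 and edgeR 3.20.8, with the build mm10. Which annotation and strand setting were used, and how multi-mapped reads were handled, is not given in the sources used here. Groups follow the labelled genotype, and replicate numbers follow accession order and pair no samples. The members and gene lists were chosen with earlier results of these data known. All members were named. From each other list up to 4 called genes with the smallest p were named, or the gene with the smallest p where none was called, with paralogs. Of the genes this rule and the marker lists cover, 2 are not reported here. Serpina1c, Alb, Ass1, Mmab and the genes listed at 0 were named after their values were seen.

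Genes were tested with edgeR 4.0.16 (R 4.3.3) by its two-sided quasi-likelihood test (KO minus WT) after filterByExpr (minimum count 10, minimum total 15), TMM scaling and a robust fit. P-values were adjusted by Benjamini-Hochberg over 12945 genes at a threshold of 0.05. The standard error is approximate: the absolute log2 fold change over the square root of F. The script was tested on simulated data. Between 18882220 and 24098512 counts a library, with a common biological coefficient of variation of 0.232, set the precision. Ratios within a library were tested with exact permutation in SciPy 1.17.1. Exon lengths and positions came from GENCODE mouse release 21 (mm10), which matched 23334 of 24421 symbols, and start windows from RefSeq (GRCm38.p6), where 4 members (Fdps, Fdft1, Sqle and Stard4) had none. The motif TCACNCCAT was added after seeing the data. As alternatives, the fit was run with upper-quartile factors, RLE factors, plain library sizes, no filter on low counts, 1 CPM in 3 libraries, DESeq2 1.42.0, limma-voom (limma 3.58.1), a fit without robust dispersion, and leaving out each library.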

Additional observations from a re-analysis of the deposited data

How the results depend on the processing

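Of all genes, edgeR called 435 higher and 463 lower. With library size only these were 707 and 258, the median of all genes moved to 0.21, 5 members fell (Fdps, Tm7sf2, Nsdhl, Sc5d and Stard4) and the members' median was -0.50. With library size only the uncalled Mvk, Ggps1, Lbr, Srebf2 and Mbtps1 had values above 0. DESeq2 called 924 higher and 1040 lower, and 15 members lower, adding Acat2, Idi1, Fdft1 and Lss. Without the filter on low counts 9 members fell, Tm7sf2 and Insig1 missing the threshold. RLE factors, upper-quartile factors, 1 CPM in 3 libraries, limma-voom and the fit without robust dispersion each gave 11. Leaving out 1 library gave 48 to 504 genes higher, 53 to 475 lower, and 0 to 12 members lower. Under every alternative run 0 members were called higher, and none of the 11 called members changed sign. No paired analysis was possible because replicate numbers come from accession order and pair no samples. Counts of 9 to 32 a KO library limit Idi1.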
